A study of Mus musculus with 8 samples.

Results

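The profile described here is that of untreated wild-type distal ileum, and it rests on 3 of the 8 libraries of the study, 1 per mouse. Members are the genes that reached a value of 1 in each of the 3 libraries, which gave 10786 of 41128 gene symbols (26.2%). The study compared mice lacking Cftr, an anion channel of epithelia whose loss causes cystic fibrosis (allele Cftrtm1Cam), with wild-type littermates on the FVB strain. The 3 mice used here were the wild-type (Cftr N/N) members of littermate couples 1, 2 and 3. Per the labels, the mice of couples 1 and 3 were female and the mouse of couple 2 was male. Their ages were not given in the sources used here. Each library came from a whole section of small intestine taken less than 6 cm from the ileocecal valve. Like all mice of the study, these controls had been reared on a low fiber diet with an osmotic laxative, which was stopped more than 4 days before sampling. They were sampled between 12 and 14 h, within 20 min of a Cftr null littermate, and received no antibiotics. They are littermates of null mice kept on this regime, so their values describe ileum under those conditions.

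The distal ileum takes up what the upper intestine leaves behind and is the site where bile acids and the vitamin B12 complex are recovered. Its epithelium is made of absorptive enterocytes, mucus-making goblet cells, hormone-making enteroendocrine cells, chemosensory tuft cells, and crypts in which stem cells sit between Paneth cells that secrete antimicrobial peptides. Below it lie plasma cells that make IgA, lymphoid follicles, connective tissue and the muscle layers, and all of these contribute RNA to a whole section. In such a bulk sample, fewer cells of a type and less RNA per cell cannot be told apart.

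The deposited table names no unit. Its values were taken as RPKM-like, that is, reads scaled by transcript length and library size, so levels of different genes are compared per length. In the text, 3 values in a row are those of couples 1, 2 and 3 in that order. The sorted values of couples 1 and 2 were identical, so an equal value in these 2 libraries means an equal rank. Couple 3 was on a distribution of its own and listed 11912 symbols above 0 against 20896 in each of the other libraries. A value of 0 was therefore not read as absence, and levels of couple 3 are set beside those of separately scaled libraries throughout. Relative to each gene's 3-library mean on the log2 scale, couple 3 was lower for members with the longest transcripts (median -0.15). For those with the shortest transcripts it was higher (0.10). Length here is that of a gene's longest annotated transcript. The summed value was 351707 in couples 1 and 2 and 397021 in couple 3, and the members held 99.0%, 99.0% and 99.6% of it. Read depth is unknown. The sex labels were met by the data: Xist, the female-specific RNA of the inactive X, was at 58.5, 0.0117 and 15.3, and the Y-linked gene Eif2s3y at 0.0153, 8.6 and 0. Cftr was at 12.4, 9.94 and 10.1 (mean 10.8), on chromosome 6 from 18170687 to 18322768 (plus strand, GRCm38).

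To show what lies in front of the most abundant ileal genes, the RefSeq promoters (build GRCm38.p6) of the 100 most abundant nuclear members were searched. A promoter here is the 250 bases before and the 50 bases after a start site, and 69 of the 100 symbols matched, with 79 promoters. The letters TATAA, searched on the gene's own strand and starting 40 to 20 bases before the start site, were present in 15 of these 79 (19.0%). The same letters stood in 43 of 864 promoters (4.98%) of nuclear members ranked after these up to 1000, in 183 of 9300 (1.97%) of the remaining members, and in 1155 of all 32851 promoters (3.52%). The letters CAAAGTCCA, a form of the site bound by HNF4 factors, were searched on either strand in the whole window. In the same order of classes they stood in only 2 of 79 promoters (2.53%), 12 of 864 (1.39%) and 38 of 9300 (0.409%). Of all 32851 promoters, 156 (0.475%) held them. The motifs and the classes were chosen with values of these libraries known. A match is a description of letters and does not show binding, and related genes share promoter sequence, so promoters are not independent of each other.

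The 100 bases before the start site are printed for 11 of these genes. Capitals mark TATAA, or in Alpi CAAAGTCCA, and each line reads 5′ to 3′ on the gene's own strand.
Fabp6 (ileal bile acid binding protein, chr11:43601563-43601662, minus strand): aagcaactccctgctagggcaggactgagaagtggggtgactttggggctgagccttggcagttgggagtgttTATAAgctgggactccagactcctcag
Fabp1 (liver-type fatty acid binding protein, chr6:71199779-71199878, plus strand): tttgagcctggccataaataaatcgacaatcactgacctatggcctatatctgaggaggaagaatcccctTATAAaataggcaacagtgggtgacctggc
Reg3b (antimicrobial lectin, chr6:78370785-78370884, plus strand): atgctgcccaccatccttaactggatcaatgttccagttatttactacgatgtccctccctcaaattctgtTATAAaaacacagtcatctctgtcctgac
Reg3g (antimicrobial lectin, chr6:78468875-78468974, minus strand): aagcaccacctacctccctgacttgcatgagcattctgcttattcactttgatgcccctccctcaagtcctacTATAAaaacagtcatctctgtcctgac
Defa20 (Paneth cell alpha-defensin, chr8:21509158-21509257, plus strand): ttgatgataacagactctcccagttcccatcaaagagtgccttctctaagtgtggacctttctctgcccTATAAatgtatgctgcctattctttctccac
Defa22 (Paneth cell alpha-defensin, chr8:21162177-21162276, plus strand): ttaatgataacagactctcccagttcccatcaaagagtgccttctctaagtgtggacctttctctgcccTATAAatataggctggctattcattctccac
Defa23 (Paneth cell alpha-defensin, chr8:21054940-21055039, plus strand): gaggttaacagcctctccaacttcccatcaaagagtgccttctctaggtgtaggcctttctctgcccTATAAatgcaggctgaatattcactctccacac
Krt20 (keratin of villus epithelium, chr11:99438154-99438253, minus strand): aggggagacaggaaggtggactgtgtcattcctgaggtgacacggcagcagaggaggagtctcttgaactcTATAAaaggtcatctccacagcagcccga
Lgals2 (galectin, chr15:78855530-78855629, minus strand): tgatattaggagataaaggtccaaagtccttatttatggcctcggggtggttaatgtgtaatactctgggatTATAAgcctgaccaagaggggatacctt
B2m (light chain of MHC class I, chr2:122147587-122147686, plus strand): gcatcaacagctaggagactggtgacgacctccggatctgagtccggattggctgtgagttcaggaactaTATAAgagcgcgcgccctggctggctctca
Alpi (intestinal alkaline phosphatase, chr1:87101607-87101706, minus strand): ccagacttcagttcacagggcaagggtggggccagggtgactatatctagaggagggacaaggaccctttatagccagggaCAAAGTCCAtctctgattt
The Defa20 and Defa22 lines share an unbroken run of 73 bases, and each shares 25 with Defa23. The Reg3b and Reg3g lines share 20, whereas Fabp6 and Fabp1, members of 1 protein family, share no run longer than 7.

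A small number of transcripts held much of the profile. The most abundant member held 4.29% ± 0.377 of the members' summed value (SD, n = 3), the first 10 held 18.0% ± 1.41, the first 100 held 43.1% ± 0.283 and the first 1000 held 71.4% ± 1.59. Since values are per length, these are shares of length-scaled value and not of reads. The members' median was 8.0, 8.02 and 7.48. Of the members, 3857 had at least 10 in all 3 libraries, 328 at least 100 and 28 at least 1000. At the lower edge, Trim65 (1.00, 2.10 and 1.40) lay just inside the threshold of 1, and Gdf10 (1.00, 1.82 and 1.51), whose couple 1 value rounds up to 1, just outside. A further 727 symbols reached 1 in exactly 2 libraries.

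Mitochondrial, fatty acid-binding, apolipoprotein and alpha-defensin transcripts led the profile. The highest mean was that of mt-Co1, a subunit of cytochrome c oxidase encoded on the mitochondrial genome, at 14173, 14173 and 18690. Next came Fabp2, the intestinal fatty acid binding protein (chromosome 3, 122895072 to 122899506, plus strand), at 7892, 3910 and 9830. Gm15284, an alpha-defensin gene, was at 9087, 7135 and 4851. Apart from mt-Co1, which ranked first in every library, the order of these leaders differed between the libraries, with Fabp2 ranked 3, 10 and 2. Apoa1, the main protein of high-density lipoprotein (chromosome 9, 46228580 to 46230466, plus strand), was at 4661, 9087 and 6656, highest in couple 2. Fabp6, the ileal bile acid binding protein (chromosome 11, 43596049 to 43601540, minus strand), was at 5128, 6151 and 6881 (mean 6053 ± 880, SD, n = 3). Fabp2, Gm15284, Apoa1 and Fabp6 overlapped in their ranges over the 3 libraries.

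Among the 30 members of highest mean value were 9 of the 13 mitochondrially encoded messages, 7 alpha-defensin genes and, beside those named, the goblet and enterocyte lectin gene Zg16, aminopeptidase N (Anpep), the apolipoprotein gene Apoa4 and the keratin gene Krt8. Zg16 was at 2401, 3353 and 2598. Anpep, which trims peptides at the brush border, was at 1288, 2818 and 2311. Guca2a, the precursor of guanylin, a peptide that drives fluid secretion, was at 1375, 1643 and 1931, lowest in couple 1 as Anpep was. Crip1, a small LIM-domain protein, was at 1189, 1967 and 3145. The immunoglobulin kappa constant gene Igkc was at 1481, 1160 and 1873, and the lysozyme gene of Paneth cells, Lyz1, at 1967, 1093 and 1538. Igkc was lowest in couple 2, as Lyz1 was.

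**Figure D1:**
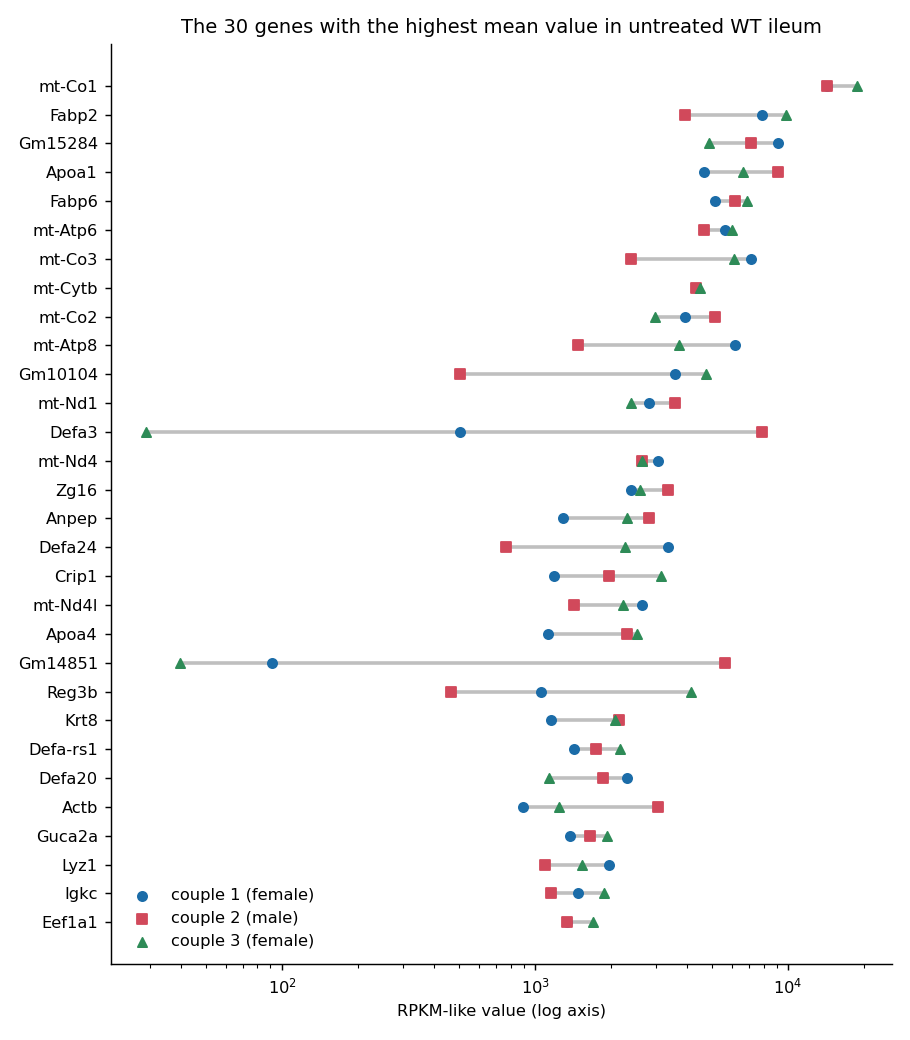
Values of the 30 members of highest mean in the 3 untreated wild-type libraries, as RPKM-like values on a log axis, with a grey bar from the lowest to the highest library of each gene. The bars of Defa3 (29.1 to 7892) and Gm14851 (39.5 to 5612) span the widest ranges, followed by those of Gm10104 (504 to 4746) and Reg3b (464 to 4148).

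Of the 100 most abundant members, 13 were mitochondrially encoded, 11 were alpha-defensin genes by symbol or synonym and 9 were cytosolic ribosomal protein genes. A further 9 belonged to the list of brush border structure genes and 5 to that of brush border peptidases. Genes without a defensin symbol or synonym, such as AY761185 on chromosome 8 (1643, 1034 and 822), do not enter the alpha-defensin count. Immunoglobulin constant genes gave 2, Igkc and Igha. The remainder were spread over further lists, and 20 were in none of the 59 lists, among them Lgals2 (872, 996 and 1180), Sepp1, the plasma selenium carrier (1034, 1288 and 1804), and the small membrane protein gene Smim24 (814, 940 and 1223). These 3 genes were lowest in couple 1 and highest in couple 3.

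Each list below is described by the percentile of its median member among all 10786 members, where 50 is the middle of the profile. List genes that were not members do not enter this median. Of the 58 lists with a member, 31 had a median percentile of at least 75. Lists were built from known intestinal functions and markers, with earlier results of these data known, and a gene may be in several. Over all members, 32.3% had their highest value in couple 1, 41.1% in couple 2 and 26.7% in couple 3, and 35.7%, 33.5% and 30.8% had their lowest value there. Counts of a list's members highest or lowest in a library are to be read against these shares. The shares are not matched for level, however. The members' upper quartile was 17.9, 17.9 and 18.8, highest in couple 3, while their median was lowest there (8.0, 8.02 and 7.48). Shares among abundant genes, which fill many lists, can thus differ from those over all members and were not computed.

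Bile acid recovery was carried by genes at high level. Of 13 genes of bile acid uptake and signalling, 11 were members, with a median percentile of 87.7. Slc10a2, the apical sodium-dependent transporter that takes bile acids into the ileal enterocyte (chromosome 8, 5083219 to 5105351, minus strand), was at 38.2, 56.3 and 46. The 2 subunits of the basolateral exporter were higher, Slc51a at 323, 391 and 477 and Slc51b at 211, 170 and 252. Per length, the cytosolic carrier Fabp6 thus stood more than an order of magnitude above the exporter, and the apical transporter stood lowest of the 4, in every library. Nr1h4, the bile acid receptor FXR, was at 40.3, 40.5 and 34.6. Its target Fgf15, the hormone that signals to the liver to lower bile acid synthesis (chromosome 7, 144896531 to 144900953, plus strand), was at 39.9, 10.2 and 56.4, with couple 2 lowest. Nr0b2, another target, was also lowest in couple 2 (5.43, 2.65 and 8.52). The bile acid receptor gene Gpbar1 stayed below 1 (0.22, 0.622 and 0), and the liver exporter gene Abcb11 was at or near 0 in each library.

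Vitamin B12 uptake gave a divided list, with 11 of 15 genes as members and a median percentile of 44.3. Its receptor genes were high: Cubn, encoding cubilin (chromosome 2, 13276338 to 13491813, minus strand), was at 115, 198 and 77.4, and its partner Amn at 61.3, 88.1 and 110. The transport protein transcobalamin, Tcn2, was at 131, 160 and 191. Genes of intracellular cobalamin handling were low, for example Mmab at 3.88, 4.29 and 4.42. The folate transporter gene Slc46a1 was at 7.51, 7.23 and 5.31, and Lrp2, a receptor known from the kidney, was at 0, 0.014 and 0.

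The digestive surface was among the most strongly represented functions. All 12 members of the brush border peptidase list (15 genes) were at a mean of 84.5 or more, with a median percentile of 98.7. Naaladl1, a brush border peptidase gene, was at 642, 1567 and 1172, and Enpep, aminopeptidase A, at 431, 458 and 540. Mep1b, a subunit of the metalloprotease meprin, was at 417, 312 and 576. None of the 12 members was highest in couple 1, and 8 of the 12 were lowest there. The 3 genes of the list that were not members included Tmprss15, the duodenal enteropeptidase, at 0.77, 0.0558 and 0, and the folate hydrolase gene Folh1, listed at 0 in all 3.

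All 4 disaccharidase genes were members. Sucrase-isomaltase, Sis (chromosome 3, 72888557 to 72967863, minus strand), was at 376, 295 and 303, and maltase-glucoamylase, Mgam, at 312, 368 and 150. Lactase, Lct, was at 119, 88.4 and 122, and trehalase, Treh, at 72.3, 95.3 and 147. Among sugar transporters, the sodium-glucose cotransporter gene Slc5a1 led by far at 328, 241 and 302. The fructose transporter gene Slc2a5 was at 10.3, 11.9 and 10.4, the basolateral glucose transporter gene Slc2a2 at 6.06, 7.27 and 3.46, and Slc2a7 did not qualify as a member (1.52, 0.926 and 2.4). Khk, the first enzyme of fructose breakdown, was at 72.1, 66.3 and 124.

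Of 18 peptide and amino acid transporter genes, 16 were members, with a median percentile of 94.5, and none of the 16 differed 2-fold between libraries (11.7% of all members did). The peptide transporter gene Slc15a1 was at 200, 289 and 211. Slc6a19, the main neutral amino acid transporter, was at 192, 228 and 272. Slc3a1 and Slc7a9, the 2 chains of the transporter for cystine and basic amino acids, were at 112, 123 and 172 and at 86.4, 103 and 107. The non-members were Slc7a5 (0.433, 1.25 and 0) and Slc6a14 (below 0.1 in each library).

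Lipid absorption genes had a median percentile of 97.0 over 24 members of 25 genes. Beside Fabp2 and Apoa1, Apoa4 was at 1123, 2302 and 2521 and Fabp1 at 601, 223 and 608. The genes that build the chylomicron, Mttp (262, 250 and 388) and Apob (305, 351 and 242), lay in the same range as Acsl5, which activates fatty acids (363, 235 and 482). The triglyceride-forming enzymes Mogat2 (130, 180 and 269) and Dgat1 (160, 147 and 207) followed. In this list 19 of 24 members were highest in couple 3. In the Fabp family, Fabp2 and Fabp6 stood far above Fabp1 in each library, and Fabp4, the adipocyte form, was at 54.4, 81.8 and 36.3.

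Sterol transport (13 of 13 genes, median percentile 88.2) was led by Npc1l1, the cholesterol importer and target of ezetimibe, at 195, 336 and 257. The genes of the sterol exporter, Abcg5 (117, 79.3 and 84.6) and Abcg8 (59.4, 44 and 45.9), were lower. None of the 13 genes differed 2-fold (11.7% of all members did). All 24 cholesterol biosynthesis genes were members, at a median percentile of 79.8, among them Hmgcs1, an early enzyme of the pathway (87.9, 71.7 and 79.7). Mvd was the 1 gene of the 24 with a 2-fold spread (4.63, 18.4 and 8.07).

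The genes of the brush border structure list were all members (24 of 24) with a median percentile of 98.5. The list is not limited to structural genes and also holds, for example, the guanylin precursor gene Guca2a. Villin, Vil1, an actin-bundling protein and defining marker of enterocytes, was at 620, 710 and 911. The keratin genes included Krt8 (1160, 2139 and 2075), Krt20 (724, 872 and 1228) and Krt19 (611, 1059 and 1012), with Krt18, the usual partner of Krt8, far lower at 83.4, 119 and 115. The range of Krt20 overlapped those of Krt8 and Krt19, Krt8 was above Krt19 in each library, and Krt18 lay below all 3. Other members included the brush border myosin gene Myo1a (403, 542 and 532) and Cdhr5, a cadherin that links microvilli (379, 699 and 744). Of the 24, 19 were lowest in couple 1.

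In ion transport (24 of 30 genes, median percentile 79.3), the sodium pump gene Atp1b1 was at 590, 482 and 573. Clca6, a calcium-activated chloride channel regulator family member, was at 220, 363 and 400. Cftr, at a mean of 10.8, lay near Kcnq1, a basolateral potassium channel gene (15.3, 19.9 and 17.8) and near the apical sodium-proton exchanger gene Slc9a3 (17.4, 12.8 and 18.5). The bicarbonate-linked exchanger gene Slc26a6 was higher (57.3, 83.5 and 96.4) than Slc26a3 (29.5, 23.2 and 31.2) in each library. The basolateral chloride importer gene Slc12a2 was at 33.6, 20.1 and 18.7.

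Mineral uptake genes (17 of 20 members, median percentile 81.5) covered a wide range of levels. The zinc transporter gene Slc39a4 was at 69.6, 108 and 131 and the phosphate transporter gene Slc34a2 at 87.8, 131 and 140. The iron storage genes Fth1 (916, 796 and 800) and Ftl1 (509, 735 and 773) were at high level. The iron importer gene Slc11a2 (9.43, 10 and 10.2) and exporter gene Slc40a1 (7.68, 4.55 and 5.25), which serve uptake in the duodenum, were near the members' median. The calcium channel gene Trpv6 was at 0.23, 0.0244 and 0, and its carrier gene S100g at 25.7, 6.66 and 3.03, high in couple 1. Metallothionein genes differed between libraries, with Mt1 at 122, 248 and 63.1 and Mt2 at 28.9, 35.7 and 7.96.

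Genes of xenobiotic metabolism were at high level. Of 50 xenobiotic genes, 46 were members (median percentile 93.1). Cyp4f14, a cytochrome P450 of fatty acid hydroxylation, was at 291, 427 and 511, and the carboxylesterase gene Ces2e at 326, 341 and 490. Cyp3a11, the main drug-oxidizing P450, was at 216, 33.8 and 200, and the drug exporter gene Abcb1a at 223, 177 and 129. Retinoid metabolism (16 of 23 genes, median percentile 71.4) was led by Rbp2, the carrier of dietary retinol, at 388, 581 and 636, followed by Aldh1a1 (282, 244 and 465). Its non-members included Lrat (1.05, 1.95 and 0) and Bcmo1 (0.71, 0.876 and 0), which store retinol and cleave carotene.

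Genes of energy metabolism were at high level. All 73 nuclear respiratory chain genes were members, with a median percentile of 93.2. Cox6a1 was at 283, 403 and 454 and the ATP synthase gene Atp5a1 at 336, 354 and 417. The 13 mitochondrially encoded messages had values from 194.6 (mt-Nd6 in couple 2) upward and summed to 15.9%, 12.1% and 13.7% of all value, while the 2 mitochondrial ribosomal RNA genes, mt-Rnr1 and mt-Rnr2, were listed at 0 in all 3. Of 79 cytosolic ribosomal protein genes, 76 were members at a median percentile of 97.0, from a mean of 5.94 to 719 (Rplp1). Glycolysis (25 of 25, median percentile 78.3) included Ldha, lactate dehydrogenase A, at 314, 314 and 527. Fatty acid oxidation genes (31 of 33 members, median percentile 89.6) included Acaa2, a thiolase of mitochondria, at 143, 110 and 218.

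**Figure D2:**
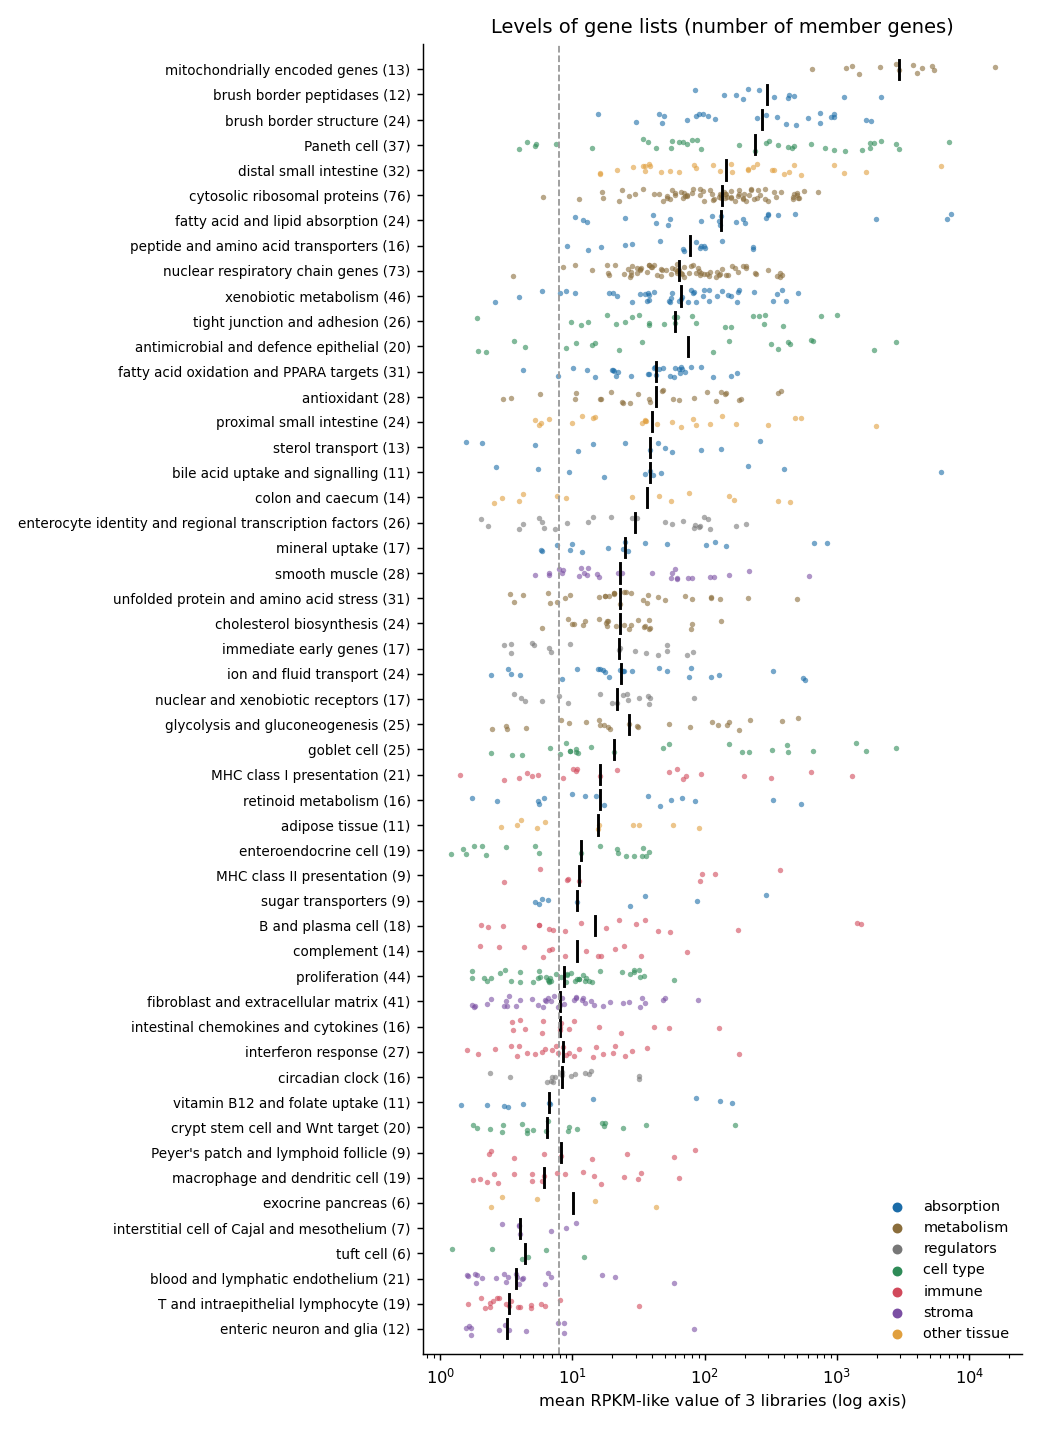
Levels of the gene lists with at least 5 members, as the mean RPKM-like value over the 3 libraries on a log axis, 1 point per gene, with a black bar at the median of each list and a dashed line at the median of all members. Lists are sorted by median percentile, from enteric neuron and glia (21.02) at the bottom to the mitochondrially encoded genes (99.9) at the top.

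The labelled region was checked against genes known from distal small intestine. Of 34 such genes, 32 were members with a median percentile of 97.1 and means of 16.1 to 6053. Several genes known from the upper intestine were also high: Apoa4, Rbp2 and Fabp1 head a proximal list of 33 genes with 24 members (median percentile 88.5). Lct and the duodenal hormone gene Gip (37.2, 22.8 and 48) were among them. The list of colon and caecum genes (31) had 14 members with a median percentile of 86.6. Taken over all symbols above 0 in all 3 libraries, its median percentile was 52.0. The most abundant of those are also known from small intestine, namely Lypd8 (365, 373 and 574), Ang4 (489, 316 and 259) and B4galnt2 (168, 175 and 160). Of the 31, 14 were listed at 0 in couple 3 and 6 to 9 in the other libraries. The colonic hormone gene Insl5 was at 0, 0.0415 and 0.

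Transcription factors of the enterocyte were well represented (26 of 36 genes, median percentile 84.4). Hnf4a, the nuclear receptor that drives enterocyte genes, was at 152, 225 and 240, and its relative Hnf4g at 121, 67.3 and 127. Creb3l3, a membrane-bound regulator of lipid and iron genes, was at 131, 158 and 224. The caudal genes that set intestinal identity were lower, Cdx1 at 59.2, 97.6 and 117 and Cdx2 at 59.7, 47.6 and 62.9. Gata4, which marks proximal small intestine, was at 12.6, 12.3 and 18.2, below Gata6 (18.7, 18.4 and 21.6) and Gata5 (21.5, 33.5 and 37.7) in each library. Klf4 (72.4, 146 and 111) and Klf5 (63.8, 162 and 69) are factors of villus and crypt, and both were highest in couple 2.

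Among nuclear receptors (17 of 21 members), the vitamin D receptor gene Vdr led at 66.3, 96.1 and 88.2, followed by Nr1h4. None of the 17 had a 2-fold spread (11.7% of all members did). The pregnane receptor gene Nr1i2 was at 37, 34.5 and 42.6, Ppara at 15, 24.5 and 19.9 and the aryl hydrocarbon receptor gene Ahr at 3.78, 3.72 and 3.32. The estrogen receptor gene Esr1 was below 0.4 in each library.

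Paneth cell genes were the most abundant cell type list, with 37 of 39 genes as members and a median percentile of 97.9. The alpha-defensin family was counted by symbol or synonym (44 symbols, 23 of them members), so copies under other names are left out. It summed to 26543, 27578 and 18233, or 7.55%, 7.84% and 4.59% of all value. Its genes are near-identical copies on chromosome 8, so the value of a single copy is uncertain, since reads could be split among copies in ways not given in the sources used here. Lyz1 was at 1967, 1093 and 1538. The phospholipase gene Pla2g2a was at 779, 779 and 874, the intelectin gene Itln1 at 833, 558 and 512, and the ribonuclease gene Ang4 at 489, 316 and 259. Itln1 and Ang4 were highest in couple 1, as were 21 of the 37 members. This count includes most of the alpha-defensin copies. Summed over the list, the values were 31586, 32104 and 23021, so the sum was not highest in couple 1.

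Goblet cell genes (25 of 28, median percentile 77.8) included Tff3, the trefoil peptide, at 996, 1375 and 1775, and the gel-forming mucin gene Muc2 at 123, 331 and 121. Fcgbp, a mucus protein, was at 237, 673 and 337, and the transmembrane mucin gene Muc13 at 523, 509 and 941. The secretory lineage factors were low, Atoh1 at 8.38, 15.6 and 7.91 and Spdef at 8.21, 11.8 and 6.62. Muc2, Fcgbp, Atoh1 and Spdef were each highest in couple 2, where 15 of the 25 members had their highest value (41.1% of all members did).

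Enteroendocrine genes lay lower (19 of 31, median percentile 62.0). The hormone genes included neurotensin, Nts (42.9, 30.5 and 39.8), and secretin, Sct (30.1, 30.6 and 40.2), with peptide YY, Pyy, at 20.2, 52.3 and 30.2 and proglucagon, Gcg, at 19.9, 14 and 14.5. The granule proteins Chga (23.3, 25.5 and 16.6) and Chgb (36.2, 23.6 and 16.9) are the defining markers. Tph1, which starts serotonin synthesis, was at 1.29, 0.61 and 0.

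Tuft cells were represented least among the epithelial types. Of 23 genes 6 were members, and those 6, such as Ptpn6 and Plcg2, are also expressed by immune cells. The defining markers Dclk1 (0.265, 0.319 and 0) and Trpm5 (0.18, 0.13 and 0) and the lineage factor gene Pou2f3 (0.151, 0.146 and 0) were below 1 in each library. These 3 genes were listed at 0 in couple 3.

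Stem cell and Wnt target genes (20 of 27, median percentile 43.0) were mostly near or below the middle. The exception was Olfm4, a secreted protein of crypt base cells, at 187, 138 and 182. Lgr5, the receptor that defines the stem cells, was at 1.85, 1.92 and 1.5, and the stem cell factor gene Ascl2 at 2.36, 4.35 and 2.08. All 44 proliferation genes were members with a median percentile of 52.8, including Pcna (37.2, 27.8 and 40) and Mki67 (16.1, 13.9 and 5.98), the latter lowest in couple 3.

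Epithelial junction genes were high and even (26 of 29, median percentile 92.3). Of the 26, 1 had a 2-fold spread, against 11.7% of all members. Lgals4, a galectin of apical trafficking, was at 796, 916 and 1309 and the adhesion gene Epcam at 710, 660 and 885. The claudin genes included Cldn7 (300, 394 and 478), Cldn3 (182, 323 and 265) and Cldn15 (170, 220 and 299), with Cldn4 (45.4, 58.3 and 76.5) and the pore-forming Cldn2 (30.4, 29 and 24.9) below. The range of Cldn3 overlapped those of Cldn7 and Cldn15, and Cldn7 was above Cldn15 in each library.

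Immune genes were split between abundant plasma cell products and sparse lymphocyte markers. Igha, the IgA heavy chain, was at 1246, 1189 and 1827 and the joining chain gene Igj at 213, 101 and 219. The plasma cell marker Mzb1 was at 7.68, 6.63 and 5.64. T cell genes had a median percentile of 21.2 (19 of 40 members), with Cd3g at 5.48, 4.98 and 4.09, Cd3e at 3.25, 5.02 and 2.02 and the granzyme gene Gzma at 7.77, 1.68 and 9.23. Macrophage genes (19 of 31, median percentile 41.1) were led by Lyz2 (80.1, 62.1 and 48.2) and the complement gene C1qa (31.1, 31.8 and 35.9). None of the 19 had a 2-fold spread (11.7% of all members did). The macrophage markers Csf1r and Cd68 were at 6.92, 11.5 and 7.82 and at 4.56, 6.82 and 7.02. Mast cell, eosinophil and neutrophil genes were nearly unrepresented: 1 of 25 was a member, Kit (3.91, 4.96 and 2.94), which pacemaker cells of the gut wall also express, and the neutrophil genes S100a8 and S100a9 were below 0.2 in each library.

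In antigen presentation, the class I light chain gene B2m was at 1093, 1246 and 1577 and the heavy chain genes H2-D1 and H2-K1 at 537, 537 and 819 and at 293, 254 and 402. The class II invariant chain gene Cd74 was at 272, 477 and 363, and H2-Aa at 129, 103 and 124. Ciita, which drives class II genes, was at 1.27, 2.38 and 0.757. The chemokine gene of small intestine, Ccl25, was at 126, 98.2 and 160, the highest of its list in each library. Tnf stayed below 1.

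The gut wall was represented by smooth muscle (28 of 30 members, median percentile 80.0). Acta2 was at 156, 262 and 225, the enteric actin gene Actg2 at 68.4, 136 and 125 and the myosin gene Myh11 at 61.5, 91.2 and 70.2. Of the 28 members, 25 were lowest in couple 1. Fibroblast and matrix genes (41 of 45) were at the middle of the profile (median percentile 51.0), with Dcn at 52.2, 37.4 and 54.5 and Col1a1 at 10.4, 12.1 and 8.39. Endothelial genes (21 of 29, median percentile 25.9) included Pecam1 at 6.14, 7.14 and 5.24 and Cdh5 at 3.67, 4.24 and 3.33. Neuron and glia genes were lowest (12 of 35, median percentile 21.02), with Uchl1 at 3.89, 5.37 and 4.17 and the neuropeptide gene Vip at 10.1, 5.17 and 10.8. In couple 3, 19 of the 35 genes were listed at 0.

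The 3 libraries were next compared with each other. Across the 10786 members the Spearman rank correlation was 0.927 between couples 1 and 2, 0.963 between couples 1 and 3 and 0.945 between couples 2 and 3. These correlations are across genes, which are not independent replicates, and carry no p-value. The median ratio of the highest to the lowest library was 1.43, and 6222 members (57.7%) stayed within 1.5-fold. A ratio of at least 2 was found in 1263 members, which is 11.7% of those compared. A ratio of at least 4 was found in 178 and of at least 10 in 32. Between pairs of libraries, 825 members differed at least 2-fold between couples 1 and 2, 680 between couples 2 and 3, and 358 between couples 1 and 3, so couple 2 stood farthest from the others. Couple 2 was the male, while couple 3 was scaled apart from couples 1 and 2. With 1 mouse for each, sex, litter and individual cannot be told apart, and no test between the libraries was possible. The sequencing instrument and scaling of each library are not stated, so differences in these cannot be told apart from differences between mice.

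Members in which 1 library lay at least 2-fold away from both others were most frequent for couple 2, with 130 above (1.21%) and 211 below (1.96%). Couple 1 had 78 above (0.723%) and 55 below (0.51%). Couple 3 had 34 above (0.315%) and 92 below (0.853%).

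Gene classes differed in how many members passed 2-fold, against 11.7% of all members. Among 10003 protein-coding members 1026 did (10.3%). Of the 23 alpha-defensin members, 20 did (87.0%), of 126 immunoglobulin variable genes 92 (73.0%) and of 28 processed pseudogenes 18 (64.3%). Copies of alpha-defensin genes, immunoglobulin variable genes and pseudogenes have near-identical relatives, so their single values are uncertain. The part of shared reads in these counts was not tested. These classes were formed after their values had been seen.

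**Figure D3:**
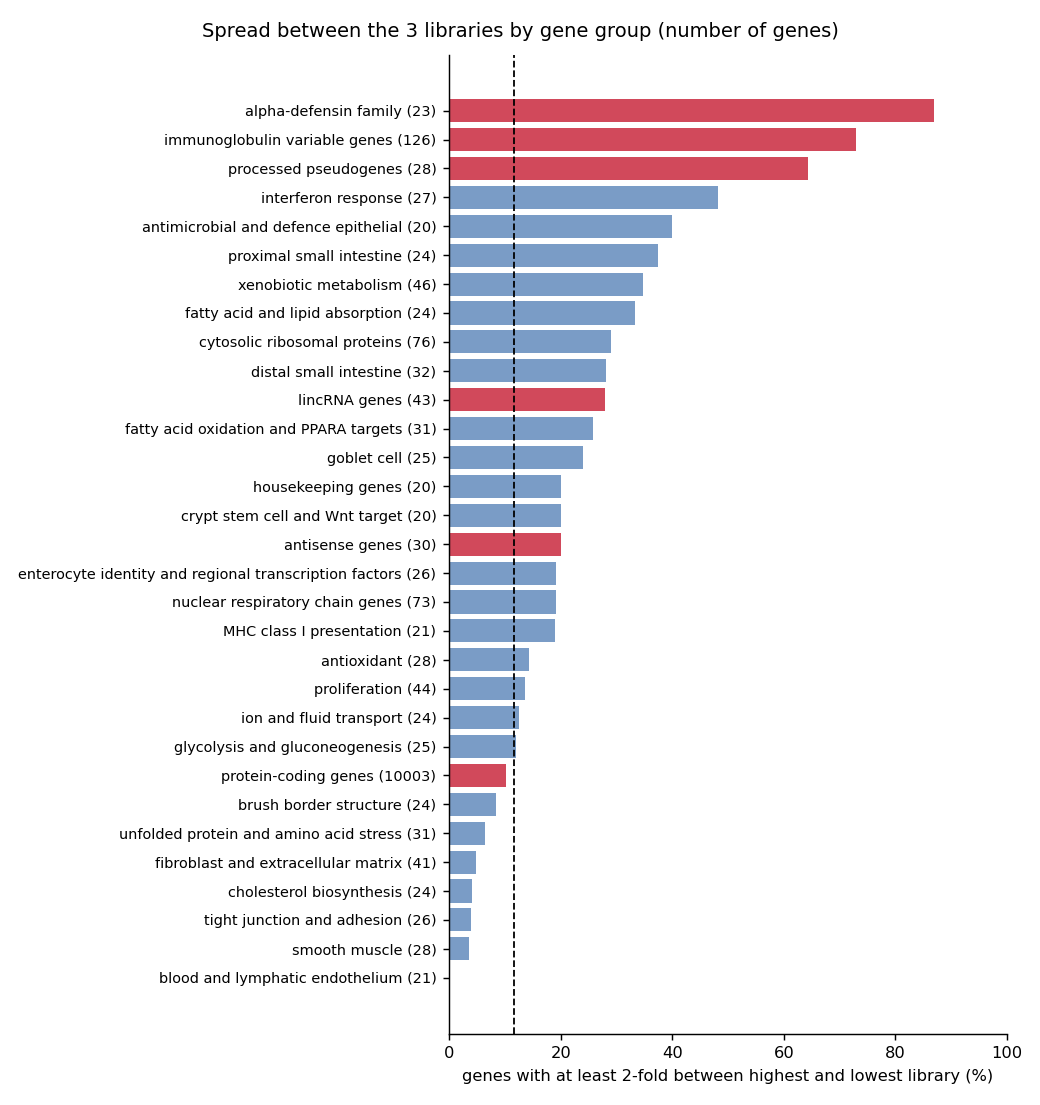
Share of genes with at least 2-fold between the highest and the lowest of the 3 libraries, in percent, for gene classes (red) and gene lists (blue) with at least 20 members other than the Paneth cell list, which holds most of the alpha-defensin genes, and a dashed line at the share over all members (11.7%). The alpha-defensin family (87.0%) stands at the top and blood and lymphatic endothelium (0 of 21) at the bottom.

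The single genes with the widest ratios belonged mostly to those classes. Defa3 (chromosome 8, 21287409 to 21288377, plus strand) was at 504, 7892 and 29.1, a ratio of 272, and Gm14851 at 91.1, 5612 and 39.5, a ratio of 142. Both were highest in couple 2, whereas Gm10104 (3582, 504 and 4746) and Defa-rs7 (940, 23 and 555) were lowest there. The summed value of the family was nearly equal in couples 1 and 2 in spite of these opposed values. Defa20 and Defa22, whose printed promoters share 73 bases, were at 2302, 1852 and 1134 and at 961, 189 and 273. Defa23 was at 385, 833 and 153. In immunoglobulin variable genes each library had high values of its own, for example Igkv6-32 at 9.97, 2.96 and 113 and Igkv9-124 at 6.08, 50.8 and 3.18. The constant genes Igkc and Igha differed by less than 2-fold.

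Several genes outside these classes had 1 library far from the others, and the part of shared reads was not tested for them either. Ctnnd1, the junction protein p120-catenin, was at 78.1, 74.9 and 1.02, although its partners Ctnna1 (143, 164 and 154) and Cdh1 (114, 153 and 158) were even. Lars2, a mitochondrial leucine-tRNA synthetase, was at 20.7, 17.5 and 519. Malat1, a nuclear non-coding RNA, was at 33.7, 78.2 and 9.03. In couple 2, the ribosomal protein genes Rpl21 (5.03, 59.1 and 3.37), Rpl24 (17.8, 114 and 12.1) and Rpl23a (61.6, 397 and 72.2) were high while Rpl39 (93.9, 14.1 and 114) was low. Ribosomal protein pseudogenes are also among the members, such as Rps18-ps3 (18.5, 3.05 and 38.7), so single values of these genes are uncertain too. In the ribosomal protein list 22 of 76 members (28.9%) passed 2-fold, yet the median deviations were -0.03, -0.08 and 0.12 on the log2 scale, so that high and low members offset each other.

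Common reference genes varied in spread, and the part of shared reads in this was not tested. Of 20 housekeeping genes, 4 passed 2-fold (20%, against 11.7% of all members). Gapdh was at 9.81, 68.2 and 13.6, Hprt at 219, 27 and 47.1, Actb at 893, 3065 and 1244, and Tfrc, the transferrin receptor, at 25, 11.8 and 18.8. Others were even, such as Gusb (5.28, 5.37 and 5.2), Sdha (90.8, 81.5 and 97.7) and Ywhaz (100, 125 and 114). Among the 500 members of highest mean, the 10 with the smallest ratio included mt-Cytb (4310, 4310 and 4501), the actin-nucleating subunit gene Arpc5 (94.4, 94.6 and 101.02), Iqgap2 (96.5, 89.7 and 94.9), the RNA-binding gene Ybx1 (157, 158 and 171) and Fth1. B4galnt2, a glycosyltransferase of gut epithelium, was also among them (168, 175 and 160), as were Pla2g2a and Ctnna1.

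Whole lists differed between the libraries as well. For each gene the deviation of a library from the gene's 3-library mean was taken on the log2 scale, and the median over the list was compared with the median over all members, which was -0.01, 0.04 and -0.01. A median deviation of at least 0.3 in some library was found in 14 of 58 lists, of which 2 have a single member.

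Adipose genes had the largest deviation, 0.83 in couple 2 against -0.34 and -0.47 in couples 1 and 3. Of 16 genes 11 were members, 10 of them were highest in couple 2 and 9 passed 2-fold (81.8%, against 11.7% of all members). Adipoq, encoding the adipocyte hormone adiponectin, was at 4.5, 10.8 and 3.27, and Plin1, the coat protein of fat droplets, at 1.5, 5.83 and 1.31. Car3, a carbonic anhydrase of fat and muscle, was at 19.7, 55.6 and 20.3 and Cfd, adipsin, at 11.3, 25.3 and 10.2. Summed over all 16 genes the values were 186, 383 and 227. Leptin, Lep, followed the same order without being a member (0.353, 2.32 and 0.688), and brown fat's Ucp1 was below 0.01 or at 0. Pck1 was the exception, highest in couple 1 (22.9, 12.5 and 12.1).

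Interferon response genes were highest in couple 1 and lowest in couple 2 (deviations 0.40, -0.43 and -0.07). Of 27 members of the 48 genes, 22 were highest in couple 1 and 21 were lowest in couple 2. Of the 27, 13 passed 2-fold (48.1%, against 11.7% of all members). Isg15, the ubiquitin-like interferon product, was at 25.9, 4.57 and 12.2. Oasl2, of the RNA-sensing oligoadenylate synthetase family, was at 21.1, 2.58 and 7.31, and the helicase gene Ddx60 at 16.5, 2.36 and 4.34. Ifit1 did not qualify because of couple 2 (16.4, 0.95 and 3.46). The factor Irf7 was at 33.9, 15.2 and 25.2, whereas Irf1 (28, 25.4 and 31.1) and Ifitm3 (33.9, 35.4 and 40.8) were nearly even. Epithelial defence genes were also low in couple 2 (median deviation -0.35, 14 of 20 members lowest there).

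The Reg3 lectins were highest in couple 3. Reg3b was at 1059, 464 and 4148 and Reg3g at 274, 152 and 854, and the 2 genes, whose printed promoters share a run of 20 bases, had the same order of libraries. Reg3a, at 98.9, 91.7 and 158, was more even. Saa1, an acute phase protein, was low in couple 2 only (10.7, 1.14 and 15), and Reg1 was high in couple 1 only (38.5, 2.92 and 2.95).

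**Figure D4:**
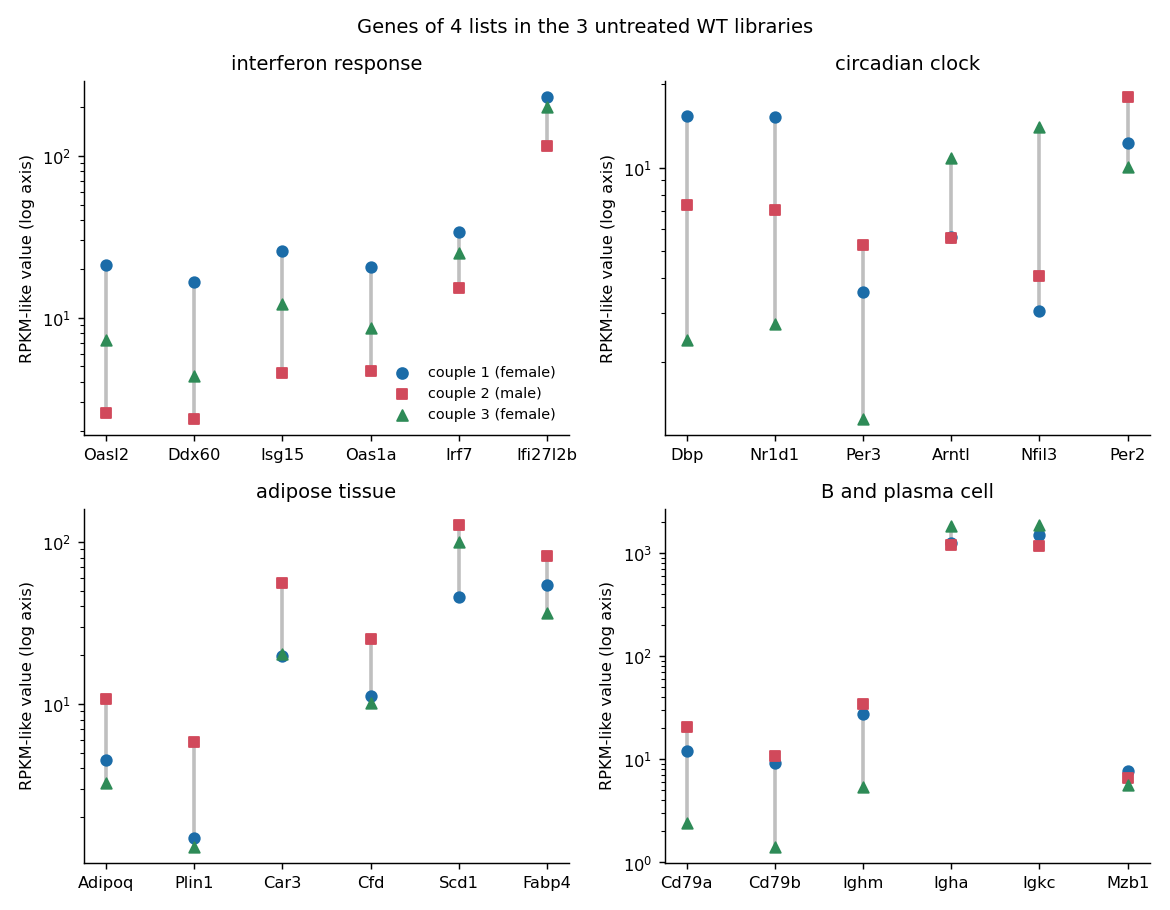
RPKM-like values on a log axis for 6 genes from each of 4 lists, 1 point per library, with a grey bar from the lowest to the highest. The adipose genes shown are highest in couple 2 (red squares), the interferon genes in couple 1 (blue circles), and Cd79a, Cd79b and Ighm are low in couple 3 (green triangles) while Igha and Igkc are not.

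Several B cell genes were low in couple 3, while the B and plasma cell list as a whole was divided. Of its 18 members, 9 were lowest and 6 highest in couple 3, and the median deviations were 0.25, 0.09 and -0.10. Summed over the list the values were 3257, 2772 and 4135. Cd79a and Cd79b, the signalling chains of the B cell receptor, were at 12, 20.5 and 2.4 and at 9.15, 10.7 and 1.42. Ighm, the IgM heavy chain, was at 27.3, 34.5 and 5.4. The follicular gene Fcer2a (4.04, 5.36 and 0.0821) was below 1 in couple 3 and was not a member for that reason. Follicle genes had deviations of 0.07, 0.36 and -0.43, with the B cell-attracting chemokine gene Cxcl13 at 12.5, 9.75 and 2.09 and the venule gene Glycam1 at 13.9, 3.14 and 0. Of the 9 follicle members, 6 were lowest in couple 3, yet Ccl21a, a lymphatic chemokine, was even (51.8, 64.5 and 59.6), and Igha, Igkc and Igj were not low there, while the IgG2b gene Ighg2b was (32.7, 16.7 and 4.26). Whether the sections held different amounts of lymphoid follicle was not tested.

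Clock genes differed in opposed directions. All 3 mice were sampled between 12 and 14 h, but the time of each within this window was not given in the sources used here. Its part in these values was not tested. Dbp, a direct target of the clock, was at 15.4, 7.34 and 2.4, Nr1d1, the repressor REV-ERB alpha, at 15.2, 7.03 and 2.73, and Per3 at 3.56, 5.26 and 1.25. Arntl, the clock activator BMAL1, was at 5.62, 5.6 and 10.9 and Nfil3, which opposes Dbp, at 3.06, 4.07 and 14. Couple 3 was thus lowest for the first 3 genes and highest for the other 2. Of the 16 clock members of 18 genes, 5 passed 2-fold (31.2%, against 11.7% of all members), while Clock (11.2, 9.66 and 10.7) and Cry1 (8.53, 9.49 and 11) were even.

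Metabolic lists differed by library in a graded way. Fatty acid oxidation genes were highest in couple 3 for 26 of 31 members (deviations -0.24, -0.09 and 0.30, the last 0.14 after quantile normalization over the members), with Pdk4, the switch from glucose to fat use, at 14.5, 26.3 and 72.1. Angptl4, an inhibitor of lipoprotein lipase, was at 4.94, 26.8 and 30.5, low in couple 1. Xenobiotic genes were lowest in couple 2 for 31 of 46 members (deviation -0.33, or -0.25 after that normalization). Of the 46, 16 passed 2-fold (34.8%, against 11.7% of all members). Beside Cyp3a11, the related Cyp3a25 was at 151, 27.8 and 77, Sult1d1, a sulfotransferase, at 147, 38.1 and 137, and Cyp2b10 at 64.1, 15.5 and 89. These 4 genes had couple 2 below both others. The glucose-releasing enzyme gene G6pc was at 5.41, 7.17 and 25.5, highest in couple 3.

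**Figure D5:**
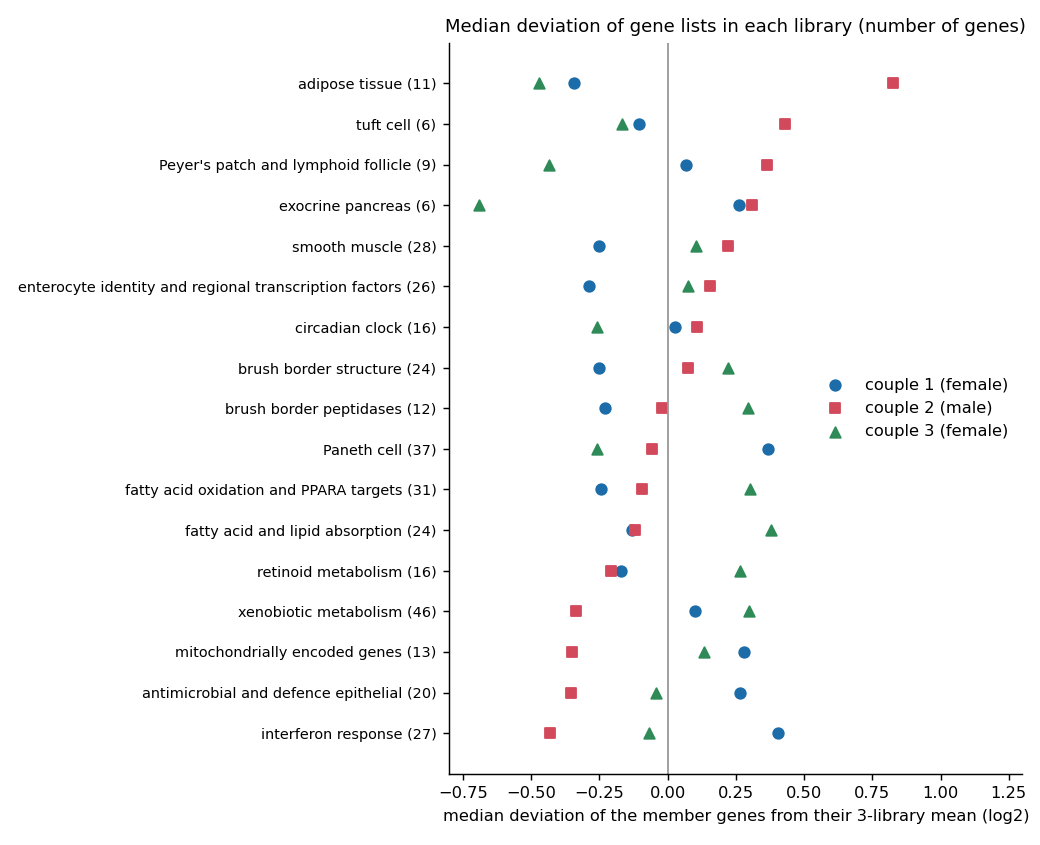
Median deviation of each list's member genes from their 3-library mean, on the log2 scale, in each of the 3 libraries, for lists with at least 5 members and a median deviation of at least 0.25 in some library. Adipose tissue has couple 2 farthest to the right (0.83), and exocrine pancreas has couple 3 farthest to the left (-0.69).

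Several genes known from stomach and pancreas were highest in couple 1. Tff2, a trefoil peptide of gastric mucous cells, was at 72.6, 1.01 and 0, Gkn3, a gastrokine, at 24.5, 0.39 and 0 and the gland mucin gene Muc6 at 3.13, 0.196 and 0. The acid pump gene Atp4a stayed near 0 (0.0833, 0.0884 and 0). Among 29 pancreatic enzyme and granule genes, 22 of the 28 above 0 in some library were highest in couple 1. Couple 3 listed 22 of the 29 at 0, against 2 in each other library, so this count mainly compares couples 1 and 2. The matching share over all symbols above 0 was not computed. Ctrb1, chymotrypsinogen, was at 11.4, 1.7 and 0, Prss2, a trypsinogen, at 6.53, 0.478 and 0 and Amy2b, an amylase, at 9.06, 0 and 0. These genes failed the threshold in at least 1 of the other libraries and so are not members. The 23 pancreatic list genes that were not members summed to 56, 7.83 and 1.12. The basal keratin gene Krt5 was at 3.66, 0 and 0. Of 23 liver genes 4 were members, with means of 4.35 to 92.4, while albumin, Alb, was below 0.2 in each library. Of 19 skeletal and cardiac muscle genes 3 were members, with means of 1.18 to 5.55, and Myh1 and Myh4 were listed at 0 in all 3. The source of these transcripts was not tested. The 6 pancreatic list genes that were members, among them Zg16, Clps and Reg1, include genes that intestine also expresses. Of these 6, 4 were highest in couple 2, and their median deviations were 0.26, 0.31 and -0.69.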

How the data were processed

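Polyadenylated RNA was sequenced from 3 untreated wild-type mice, 1 library each. Per the labels' protocols, libraries were run on an Illumina HiSeq or an Ion Proton, and per the series' design text the authors mapped reads with CLC Genomics Workbench 7.5 to GRCm38, annotation release 76. For each library, the instrument, how reads were counted and how values were scaled is not stated there. The values, taken here as RPKM, were made by the authors from the mapped reads and deposited without a named unit. They were taken so because members' levels declined with the length of the longest annotated transcript. In couple 1 the median was 13.1 in the 2066 genes with the shortest transcripts and 6.39 in those with the longest. The libraries also differed with length. Median log2 deviations of the shortest and the longest were -0.02 and 0.03 in couple 1, -0.04 and 0.13 in couple 2, and 0.10 and -0.15 in couple 3. The identical sorted values and equal sums of couples 1 and 2 show a scaling beyond RPKM, which is not described there. The remaining 5 sample columns were not used.

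Values were used as deposited, without a pseudocount, in Python 3.11.15 with pandas 2.3.3 and numpy 2.4.6. Counting and spread functions were checked on simulated data. Named genes were the 30 highest means, up to 5 per list with its defining markers and low genes, the 20 widest and 10 narrowest ratios, label checks and small families. Other genes printed from the lists, the 12 genes farthest apart per library, gene classes and promoter motifs were picked after values were seen. Members and lists were chosen with earlier results of these data known. Coordinates come from GENCODE M21 (GRCm38), promoters from RefSeq. The labels call the 3 samples separate mice.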

Additional observations from a re-analysis of the deposited data

How the results depend on the processing

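No paired analysis was possible because no result comes from a test and only 1 group was used. The number of members stayed within 9168 (threshold 2) and 11527 (threshold 0.5). With all symbols as denominator the 100 most abundant members held 42.8% of the value, and leaving out 1 replicate gave 43.2% to 43.4%. The 1263 members with a 2-fold spread became 783 with 1 added to each value, 322 among members at 10 or more in all 3 (8.35% of 3857), 1911 without a filter (16.1% of 11888), and 358 to 825 with 1 replicate left out (358 without couple 2). With 1 added to each value, members with 1 library apart fell to 32 below for couple 1, 76 above for couple 2 and 43 below for couple 3. Rank correlations among members at 10 or more were 0.851, 0.936 and 0.899 for couples 1 and 2, 1 and 3, and 2 and 3. Of 20 list deviations of at least 0.3, 6 dropped under 0.3 after quantile normalization over the members and 4 with 1 added, and none changed sign. Among the 6, lipid absorption in couple 3 became 0.23 and fatty acid oxidation 0.14. Read depth is unknown, so low values carry no counting error here.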
